A study of Papio anubis with 767 samples.

Results

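The histone genes measured in polyA-selected RNA of the baboon (Papio anubis, Papio anubis hamadryas in the protocol) were taken as the rows of the deposited table whose symbol starts with HIST, H2AF or H3F3. This gave 37 genes of 29202 rows: 6 linker H1 genes, 9 H2A genes, 13 H2B genes, 1 H3 gene, 2 H4 genes, 5 replacement H2A genes and 1 replacement H3 gene. The samples were 767 libraries from 64 tissues of 12 males aged 5 to 6 years, and the labels name no genotype or treatment group. The animals lived in 12 h of light and 12 h of dark, were fed at set hours, received a lethal dose of sodium pentobarbital and were perfused. Each animal was killed at a different time, every 2 h from ZT0 (lights on) to ZT22, and gave all tissues of that time, so the time of day and the animal cannot be told apart. The iris has 11 libraries and every other tissue has 12. Levels are FPKM, that is reads per gene length and library size.

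Histones package DNA into nucleosomes, and the linker histone H1 binds the DNA between them. Most genes with HIST symbols are replication-dependent: their messenger RNA is made mainly while DNA is copied, ends in a stem-loop and carries no polyA tail. The replacement genes (H2AF and H3F3 symbols) are mostly transcribed throughout the cell cycle into polyadenylated messenger RNA, and H2AFX makes both a stem-loop and a polyadenylated form. Some HIST genes also make polyadenylated messenger RNA, mainly in cells that have stopped dividing. Selection on polyA therefore measures the polyadenylated forms, and the values below do not give the total histone messenger RNA of a tissue.

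Reads assigned to genes ranged from 32790 (amygdala at ZT8, the library under 1 M reads) to 31.8 M per library, with a median of 8.26 M. Several libraries went against their labels. In 93 libraries the genes that differ between animals matched another animal best. Among them were all 72 libraries of ascending colon, descending colon, duodenum, stomach fundus, testicles and thyroid, each of which matched the animal of the preceding time. In 137 libraries the most similar library came from another tissue. Within tissues, 29.8% of the variance of the other genes lay on a single axis, whose mean score per animal ran from 0.92 at ZT6 to −1.02 at ZT22. It is called the library axis here, and it moves with time.

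Among the 37 genes, the replacement genes gave most of the polyadenylated histone signal. They made up 85.5% of the summed FPKM of the 37 genes in the median tissue, from 68.5% in the medial globus pallidus to 95.2% in the iris. No row has the symbol H2AFZ or H3F3B, so these shares hold for the 37 genes and not for all polyadenylated histone messenger RNA. H3F3A, which encodes the replacement histone H3, had the highest level of the 37, with a median of 185 FPKM over the 64 tissue means. Its pineal gland libraries had 339 to 1020 FPKM (median 648), and its visual cortex mean was the lowest at 52.1 ± 27.3 FPKM (SD, n = 12). H2AFY, a gene for the large variant macroH2A, had a median of 81.5 FPKM and varied less, from 33.1 FPKM in the optic nerve head to 229 ± 17.96 FPKM (SD, n = 12) in the oesophagus. H2AFV, a gene for a variant of the H2A.Z kind, had a median of 42.8 FPKM, with a range of tissue means from 20.05 to 164 FPKM.

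H2AFJ, an H2A variant that follows in this order with a median of 22.5 FPKM, differed more between libraries. Its iris mean of 335 FPKM rested on 2 libraries, at 663 FPKM (ZT6) and 2532 FPKM (ZT8), while the other iris libraries had 13.7 to 125 FPKM. In the aorta all 12 libraries lay between 106 and 270 FPKM. In the kidney cortex a library at 1076 FPKM (ZT2) stood beside the lowest at 2.49 FPKM (ZT20). H2AFY2, the other macroH2A gene, had a median of 6.82 FPKM. It was highest in iris (32.5 ± 29.5 FPKM, SD, n = 11), cerebellum (28.9 ± 6.16 FPKM, SD, n = 12) and pituitary, and lowest in bone marrow (0.51 ± 0.38 FPKM, SD, n = 12). The iris had 1 library at 97.9 FPKM, and the mean of its other 10 was 25.9 FPKM, below the cerebellum.

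**Figure D1:**
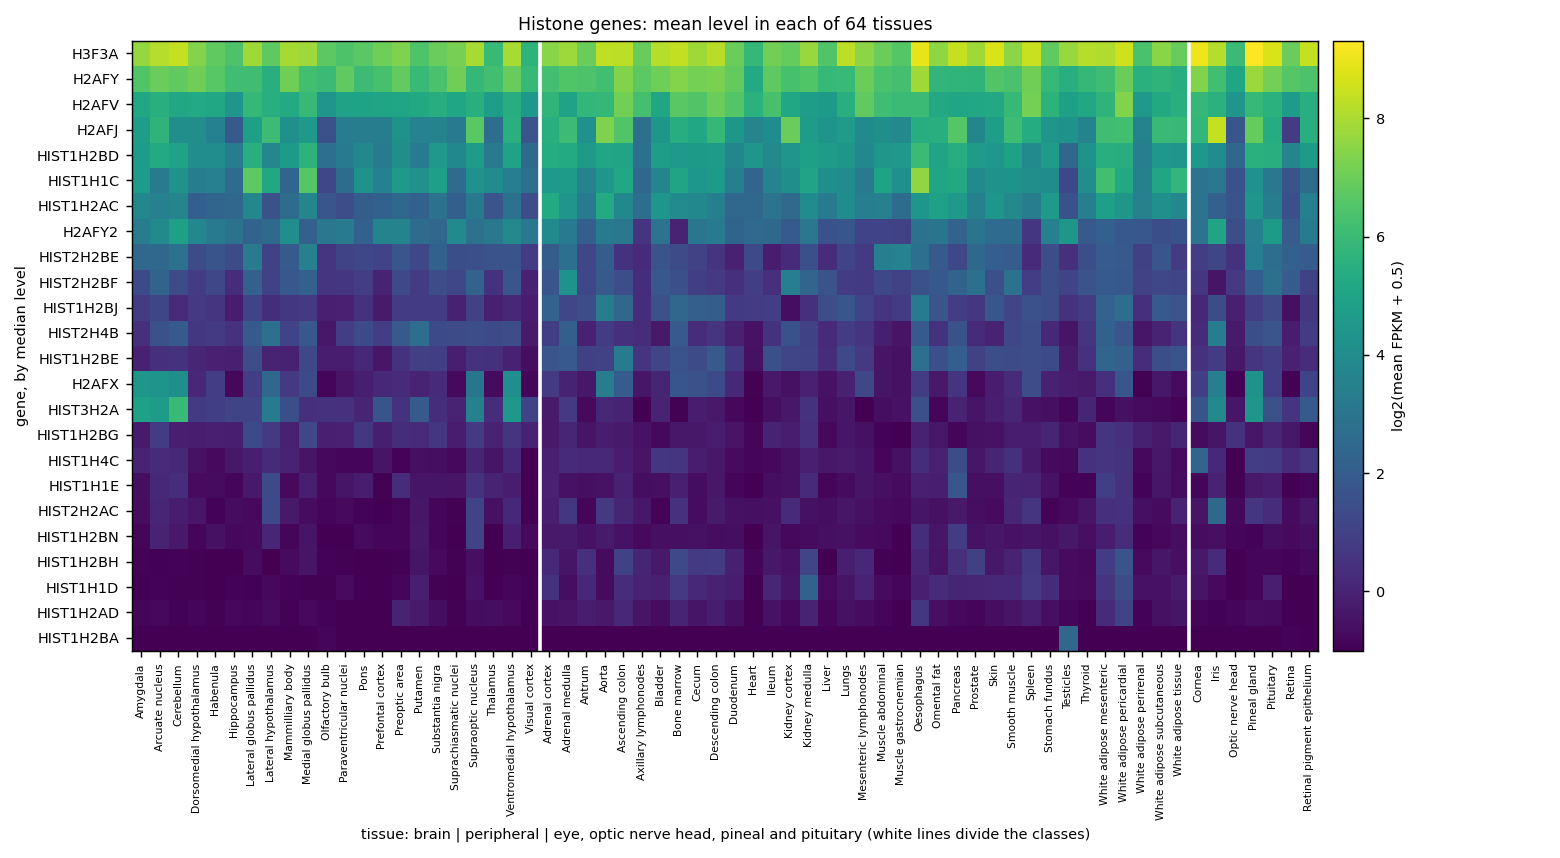
Mean level of the 24 histone genes that reached 1 FPKM in at least 1 tissue (rows, by median level) in 64 tissues (columns, brain first, then peripheral, then eye, optic nerve head, pineal and pituitary), as colour on a log2(mean FPKM + 0.5) scale. H3F3A, H2AFY and H2AFV are bright in all tissues, HIST1H2BA stands out in the testicles, and H2AFX and HIST3H2A are bright in a few brain tissues, the pineal gland and the iris.

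Among the HIST genes, 3 reached 1 FPKM in all 64 tissues, as did the replacement genes H3F3A, H2AFY, H2AFV and H2AFJ. HIST1H2BD, an H2B gene, had a median of 22.5 FPKM and its highest mean in the oesophagus (64.4 ± 21.2 FPKM, SD, n = 12). HIST1H1C, a linker H1 gene, had a median of 16.8 FPKM and spread widely. Its oesophagus libraries ran from 48.9 to 417 FPKM (median 157), and the lateral and medial globus pallidus followed at means of 108 and 94.8 FPKM, against 1.81 FPKM in the olfactory bulb. The oesophagus mean was 1.78 times that of the next tissue. All 12 oesophagus libraries resembled their own tissue most, whereas this held for 6 of 12 in the lateral and 4 of 12 in the medial globus pallidus, with means of 85.9 and 82.6 FPKM over those libraries.

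HIST1H2AC, the reference H2A gene of this set, had a median of 9.996 FPKM over tissues. The adrenal cortex label gave 39.3 ± 21.99 FPKM (SD, n = 12), with libraries from 15.2 to 83.0 FPKM, and the aorta 39.2 ± 11.1 FPKM (SD, n = 12), from 13.3 to 58.7 FPKM. Omental fat (29.1 FPKM), mesenteric fat (28.1 FPKM) and pancreas (23.1 FPKM) came next. Retina (2.38 FPKM), visual cortex (2.25 FPKM) and paraventricular nuclei (2.23 ± 1.52 FPKM, SD, n = 12) were lowest. The order is loose: all 63 neighbouring pairs of tissues differed by less than the SD of their libraries on the log2 scale. Of the adrenal cortex libraries 9 of 12 were nearest to another tissue, and the 3 others had a mean of 23.2 FPKM. Smooth muscle markers (4 genes) summed to 4235 to 29402 FPKM in that tissue against 1.92 to 36.3 FPKM in the thyroid. Their part in the adrenal cortex value was not tested. In bulk tissue, fewer cells of a type and less RNA per cell cannot be told apart.

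Of the 5 genes whose tissue pattern was most like that of HIST1H2AC, 4 were histone genes, and the next 3 (MYADM, ITGA5 and CTDSP1, r of 0.75 each) were not. Over the 64 tissue means, Pearson's r was 0.79 with HIST1H2BD, 0.77 with HIST1H2BJ and 0.76 with HIST1H2BE, the 3 closest members. The 5 closest genes among the 12146 compared were HIST1H2BD, H2BFS (0.78, an H2B gene outside the symbol rule), ZFP36L1 (0.77, a messenger RNA decay factor), HIST1H2BJ and HIST1H2BE. The points share libraries and depth, and the coefficients are descriptions. The H2B genes are near-identical copies of each other, and how reads shared between copies were counted is not given in the sources used here, so the split between them is uncertain.

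The other H2B genes named here were lower. HIST2H2BE had a median of 2.28 FPKM and its highest mean in the gastrocnemius muscle (11.4 ± 5.68 FPKM, SD, n = 12), with the medial globus pallidus at 10.8 and the abdominal muscle at 10.4 FPKM. HIST2H2BF had a median of 1.88 FPKM and stood highest in the adrenal medulla (18.5 ± 7.05 FPKM, SD, n = 12), 1.84 times the kidney cortex. HIST1H2BJ had a median of 1.29 FPKM, with 9.83 FPKM in the aorta and 9.03 FPKM in the oesophagus. HIST1H2BE had a median of 1.12 FPKM. Its highest tissue mean, 8.66 FPKM in the ascending colon, rested on 1 library at 66.5 FPKM (ZT12), since the other 11 had 0.62 to 9.75 FPKM.

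The H4 and H3 genes had low levels. HIST2H4B had a median of 1.25 FPKM. Its iris mean of 9.93 FPKM came from the same 2 libraries that were high for H2AFJ, at 32.4 and 64.9 FPKM, against 0.37 to 3.60 FPKM in the other 9. HIST1H4C had a median of 0.34 FPKM and 4.67 ± 4.38 FPKM (SD, n = 12) in the cornea. HIST1H3I, the H3 gene, stayed under 1 FPKM in all tissue means and had 181 reads over all 767 libraries.

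H2AFX and HIST3H2A were high in a few tissues and low in most. H2AFX encodes the variant that is phosphorylated around DNA double-strand breaks. Its median was 0.64 FPKM, but 6 tissues had a mean of at least 10 FPKM: amygdala, arcuate nucleus, pineal gland, cerebellum, ventromedial hypothalamus and iris. In the arcuate nucleus all 12 libraries lay between 11.9 and 26.8 FPKM, and in the pons all 12 between 0 and 1.44 FPKM. In the amygdala 11 libraries had 18.3 to 30.5 FPKM and the library at 0 was the one of low depth. HIST3H2A, an H2A gene, was highest in the cerebellum, with libraries from 19.1 to 83.6 FPKM (median 70.8), followed by amygdala (29.3 FPKM) and arcuate nucleus (25.9 FPKM). In the pons it had 0 to 2.06 FPKM.

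The tissues high for these genes also had high scores on the library axis. With the tissue means projected on the axis, the 6 tissues with at least 10 FPKM of H2AFX scored 1.71 to 2.76, and so did the 7 tissues with at least 10 FPKM of HIST3H2A. A high score did not always go with a high level: of the 9 tissues in that range the aorta (score 2.33) had 9.62 FPKM of H2AFX and 0.60 FPKM of HIST3H2A, the lateral hypothalamus (2.42) had 5.01 and 9.02 FPKM, and the supraoptic nucleus (1.87) had 7.59 FPKM of H2AFX. Over the 64 tissues r with this score was 0.75 for H2AFX, 0.70 for HIST3H2A, 0.67 for HIST2H4B and 0.64 for H2AFJ, against 0.19 for HIST1H2AC. Other histone genes lay between, such as HIST2H2AC (0.48), H2AFY2 (0.47), H3F3A (0.47) and HIST1H2BD (0.45), and the lowest was HIST1H2AA (−0.28). The coefficients of all genes with this score are not given. Among the 12146 genes compared, H2AFX resembled SIRT6 (r = 0.94) and SCAND1 (r = 0.92) most. The closest histone gene among those compared was H2AFJ (r = 0.62). A coefficient between H2AFX and HIST3H2A is not given, so a closer histone gene outside that set is possible. The genes most like H2AFX were looked up after the H2AFX values had been seen. The part of the axis in the levels of H2AFX and HIST3H2A was not tested.

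**Figure D2:**
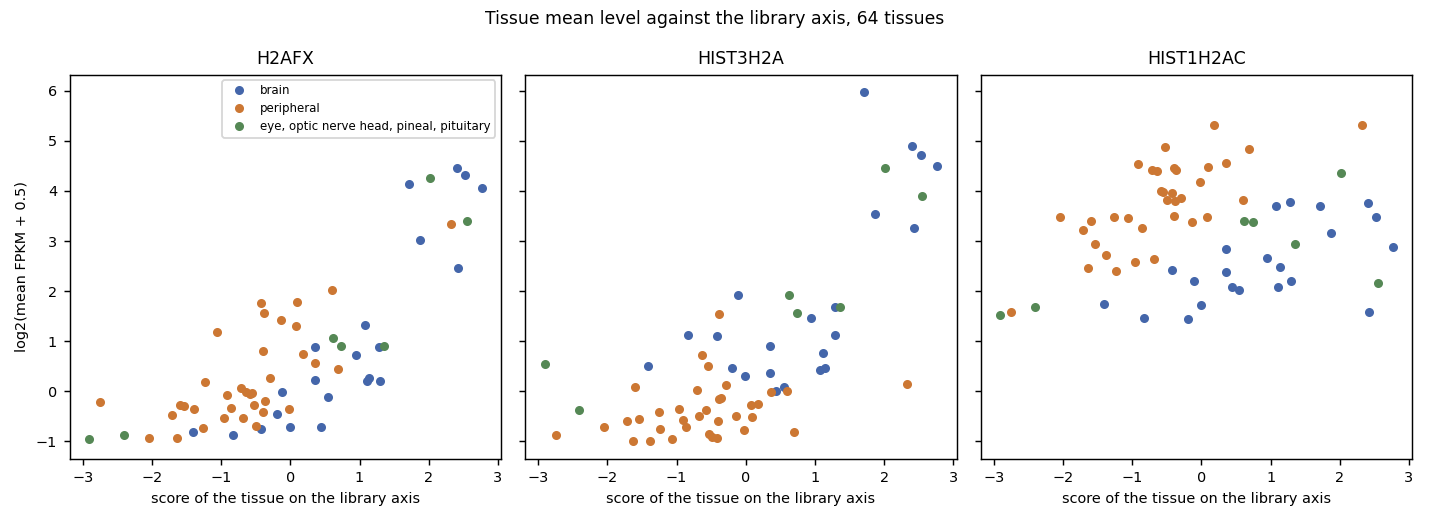
Tissue mean level (vertical, log2(mean FPKM + 0.5)) against the score of the tissue on the library axis (horizontal, in SDs of the scores of single libraries) for H2AFX, HIST3H2A and HIST1H2AC, 1 point per tissue and 64 tissues, coloured by class. For H2AFX and HIST3H2A the points over 10 FPKM all lie at scores of 1.71 or more, and HIST1H2AC shows no such step (r = 0.19).

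At the low end, 13 genes stayed under 1 FPKM in every tissue mean: HIST1H1A, HIST1H1B, HIST1H1T, HIST1H2AA, HIST1H2AH, HIST1H2AJ, HIST1H2BC, HIST1H2BM, HIST1H2BO, HIST1H3I, HIST2H2AA4, HIST2H2AB and HIST3H2BB. Of these, 7 had fewer than 100 reads over all libraries, with HIST2H2AA4 lowest at 12 reads. The linker gene HIST1H1E had a median of 0.20 FPKM and 2.90 FPKM in the pancreas, and HIST1H1D a median of 0.14 FPKM and 4.12 ± 3.07 FPKM (SD, n = 12) in the kidney medulla. HIST2H2AC had a median of 0.19 FPKM. HIST1H2AD, HIST1H2BG, HIST1H2BH and HIST1H2BN reached 1 FPKM in 2, 8, 9 and 2 tissues.

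Several of these low genes followed the level of 21 genes of dividing cells (such as MKI67 and TOP2A) over the tissues. For 7 genes r with the mean of that list was at least 0.7: HIST1H2BC (0.84), HIST1H1B (0.81), HIST1H2BH (0.78), HIST1H2BM (0.77), H2AFV (0.76), HIST1H2AJ (0.74) and HIST1H2BO (0.72). For genes of higher level r was 0.26 for HIST1H2AC, 0.06 for HIST1H2BD, 0.17 for HIST1H1C and −0.34 for HIST2H2BE. It was higher for HIST1H2BE (0.56), HIST1H2BJ (0.55) and H2AFY (0.46). Other low genes had a negative r, such as HIST1H2BG (−0.13), HIST3H2BB (−0.12), HIST2H2AA4 (−0.12) and HIST2H2AB (−0.02). The share of all genes with an r of at least 0.7 is not given. Apart from H2AFV the 7 genes have sparse values, for example 310 reads of HIST1H2BC and 369 of HIST1H2BM in all. The coefficients are descriptions over 64 tissues.

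Pericardial fat had the highest mean of H2AFV and of 6 low HIST genes, among them HIST1H2BH (2.64 FPKM) and HIST1H1B (0.74 FPKM). Its H2AFV values ran from 29.2 to 311 FPKM (median 194). The libraries at ZT2, ZT16 and ZT22 had 45.9, 32.2 and 29.2 FPKM of H2AFV, and in the same libraries the 5 T-cell markers summed to 22.8, 28.7 and 43.6 FPKM and the dividing-cell genes to 101, 72.6 and 94.9 FPKM. In the other 9 libraries H2AFV had 115 to 311 FPKM, T-cell markers 228 to 1169 FPKM and dividing-cell genes 350 to 1315 FPKM. The part of these cells in the fat values was not tested.

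Over the day, the 12 histone genes that passed a 24 h test were highest in animals of the light phase. HIST1H2AC levels averaged over the 63 tissues with 12 libraries were 6.46, 10.7, 11.7, 11.4, 12.2 and 12.2 FPKM in the animals of ZT0 to ZT10, and 8.88, 5.97, 5.17, 4.18, 4.05 and 4.23 FPKM in those of ZT12 to ZT22. The 5 highest animals were those of ZT2 to ZT10, an order read from these values, and the animal of ZT0 lay below that of ZT12. A 24 h curve fitted by limma had an amplitude of 0.81 ± 0.06 (SE, n = 12 animals) on the log2(FPKM + 0.5) scale, or 3.06-fold from trough to peak, with the peak at ZT6.9 and an adjusted p of 2.67e-05. It ranked 5 among 12055 genes by p.

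Of the 13 histone genes above the filter on low values (1 FPKM in at least 0.5 of the tissues), 12 passed this test. The share among all genes tested was 63.1%, so most genes passed. The size and the timing of the histone curves can be set beside all genes: the median amplitude was 0.47 for the 13 histone genes and 0.18 for the 12055. All 12 that passed peaked between ZT5.9 and ZT8.1. Of all genes that passed, 58.9% peaked from ZT0 to ZT12, which is 37.2% of all genes tested. This window is wider than that of the histone peaks, and the share of all genes in the narrower one is not given. The histone genes are 13 genes of related sequence and are not independent.

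HIST1H1C had the largest amplitude, 0.92 ± 0.12 (SE, n = 12 animals), with 22.8 FPKM in the animal of ZT4 and 4.20 FPKM in that of ZT20. H2AFJ followed at 0.83 ± 0.12 (SE), from 35.03 FPKM (ZT2) to 8.19 FPKM (ZT22), and HIST1H2BD at 0.77 ± 0.09 (SE), from 26.5 FPKM (ZT6) to 8.08 FPKM (ZT20). HIST1H2BJ had 0.61 ± 0.06 (SE) and peaked at ZT7.9. HIST2H2BF (0.52 ± 0.07, SE), HIST2H2BE (0.47 ± 0.07, SE) and HIST1H2BE (0.45 ± 0.04, SE) peaked at ZT8.1, ZT7.9 and ZT7.8. The adjusted p-values of these genes lay between 0.00019 and 0.00051. H3F3A had 0.46 ± 0.07 (SE) around a level of 165 FPKM, and HIST2H4B 0.40 ± 0.08 (SE).

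The H2A.Z gene H2AFV (0.25 ± 0.04, SE) and the macroH2A gene H2AFY (0.21 ± 0.04, SE) passed with small amplitudes. H2AFY2 did not pass, with 0.11 ± 0.05 (SE) and an adjusted p of 0.111. Its level was 6.299 FPKM in the animal of ZT0 and 4.48 FPKM in that of ZT22, with the others between them. With the filter lowered to 0.1 FPKM, 23 histone genes were tested and 21 passed, against 55.8% of all genes. The 10 added genes had amplitudes of 0.09 to 0.47, the largest for H2AFX (peak ZT5.6), and HIST1H2AD missed the test beside H2AFY2.

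**Figure D3:**
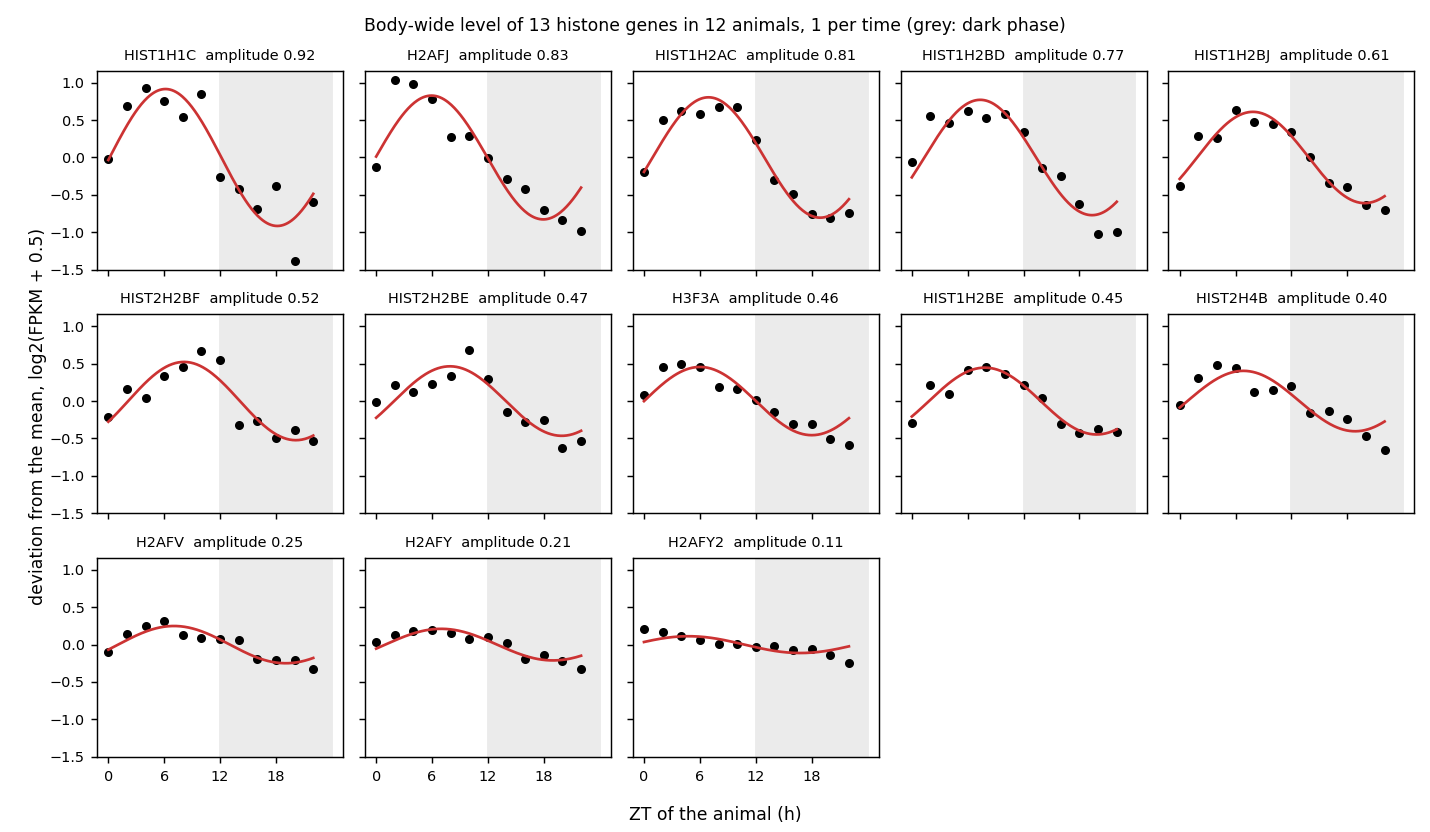
Body-wide level of 13 histone genes in 12 animals, as deviation from the gene's mean in log2(FPKM + 0.5) (vertical) against the ZT of the animal in h (horizontal), with the fitted 24 h curve in red and the dark phase in grey. Each point is 1 animal averaged over 63 tissues. The animals of ZT2 to ZT10 are high and those of ZT16 to ZT22 low for 12 genes, while H2AFY2 is highest at ZT0 and lowest at ZT22 (24 h amplitude 0.11).

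The library axis moved with these curves. The mean axis scores of the 12 animals, from ZT0 to ZT22, were 0.02, 0.84, 0.92, 0.92, 0.33, 0.28, 0.04, −0.35, −0.56, −0.72, −0.71 and −1.02. With this score as a covariate, 0.174% of all genes passed (21 genes), and 1 of the 13 histone genes did: HIST1H2BJ, with an amplitude of 0.37 ± 0.07 (SE) and an adjusted p of 0.0127. HIST1H2AC kept an amplitude of 0.55 ± 0.10 (SE) with an adjusted p of 0.0607, and HIST1H2BE 0.39 ± 0.09 (SE) with 0.076. H2AFJ then had 0.13 ± 0.11 (SE) and H3F3A 0.03 ± 0.06 (SE), with adjusted p-values of 0.895 and 0.986. Since the axis follows the time of day, the axis and the rhythm cannot be told apart.

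In the 22 brain tissues 10 of 13 histone genes passed the 24 h test, against 31.7% of all genes, and in the 35 peripheral tissues 11 of 12 passed, against 61.3%. In the brain H2AFV, H2AFY2 and HIST3H2A missed it (HIST3H2A 0.07 ± 0.05, SE, adjusted p = 0.511). Over the 24 alternatives HIST1H1C passed in the brain in 15 and H2AFV in 5. HIST1H2AC had an amplitude of 0.61 ± 0.06 (SE) in the brain, from 7.11 FPKM (ZT8) to 2.62 FPKM (ZT20), and of 0.90 ± 0.08 (SE) in the periphery, from 18.8 FPKM (ZT10) to 5.42 FPKM (ZT18). Its adjusted p-values were 0.000892 and 0.00016. With the axis as a covariate none of the histone genes passed limma's test in either class, where 6 and 36 of all genes did. At an unadjusted p under 0.05 the counts were 5 of 13 in the brain and 6 of 12 in the periphery.

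The 24 h curves of the 2 classes were compared by fitting, for each animal, its brain value less its peripheral value, and 4 of 11 histone genes passed, against 5.96% of all genes. These were HIST1H2BD (0.47 ± 0.08 in the brain and 0.97 ± 0.11 in the periphery, SE, adjusted p of the difference 0.00877), H2AFJ (0.45 and 1.10, 0.0304), HIST1H1C (0.62 and 1.14, 0.0415) and HIST1H2AC (0.61 and 0.90, 0.0428). H2AFJ reached 55.9 FPKM in the peripheral tissues of the ZT2 animal and 7.19 FPKM in those of the ZT22 animal, but only 8.28 to 19.4 FPKM in the brain. The count was 0 without the animal of ZT20, 1 without that of ZT4 or ZT8, 2 without that of ZT16 or ZT22 and 1 without the low-depth amygdala library. It was also 0 without the libraries nearest to another tissue, without those matching another animal, and with the axis as a covariate, where 7, 6 and 1 of the histone genes had an unadjusted p under 0.05. Without the animal of ZT20 that number was 6. Of all genes, 637 passed with all libraries, 28, 10 and 7 in those 3 settings, 27 without the animal of ZT20, 38 and 50 without those of ZT4 and ZT8 and 106 without the amygdala library, so most genes lost the call there.

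**Figure D4:**
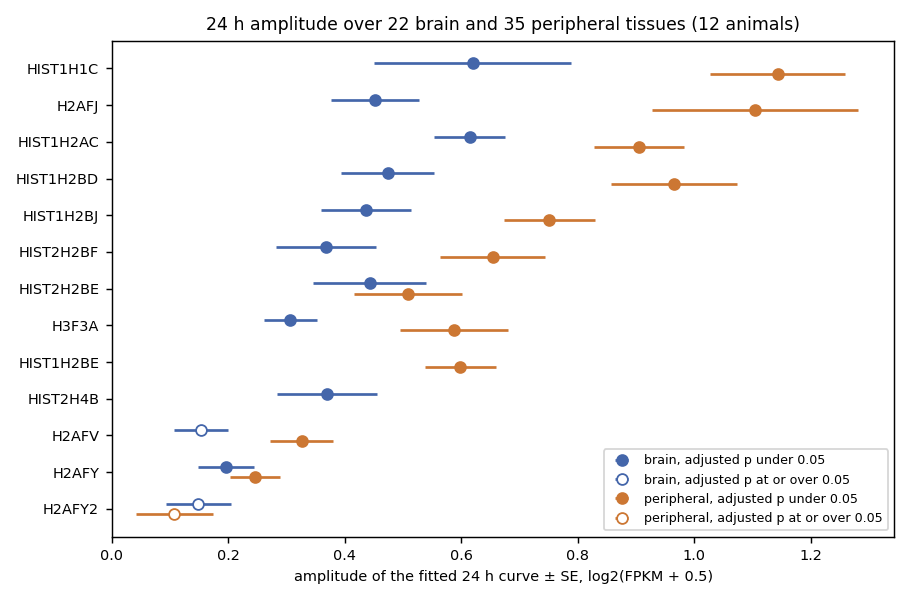
Amplitude of the fitted 24 h curve with its SE (horizontal, log2(FPKM + 0.5)) for each histone gene of the body-wide test (vertical). Points are for 22 brain tissues (blue) and 35 peripheral tissues (orange), 12 animals each, and are open for an adjusted p at or over 0.05. HIST3H2A, tested in the brain but not body-wide, is not shown. The peripheral value is the larger one for every gene with both values except H2AFY2, and the difference passed the test for HIST1H2BD, H2AFJ, HIST1H1C and HIST1H2AC.

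Brain and peripheral tissues were then compared for level, with 1 difference per animal. Of 14 histone genes tested 13 differed, against 91.7% of all genes, so the count is near the background. Of the 11 above the filter in both classes, 2 were higher in the brain (39.2% of all such genes) and 8 lower (50.5%). HIST1H2AC was lower in the brain in 12 of 12 animals, at 4.44 against 10.7 FPKM, a difference of −1.18 ± 0.07 (SE) on the log2 scale with an adjusted p of 1.82e-11. HIST1H2BJ was lower by 2.02-fold in FPKM + 0.5, at 0.62 against 1.77 FPKM. HIST1H2BE, which passed the filter in the periphery alone, had 0.50 against 1.43 FPKM. H2AFY2 was higher in the brain in 12 of 12 animals, at 8.32 against 3.901 FPKM (1.00 ± 0.06, SE, adjusted p = 7.35e-12). HIST3H2A and HIST2H4B passed the filter in the brain alone, with 2.42 against 0.21 FPKM and 1.27 against 0.79 FPKM. H2AFY did not pass (82.2 against 80.1 FPKM, adjusted p = 0.438).

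Scaling the libraries to their total reads moved the median of all genes by −0.44 in this comparison, and the share of higher calls from 48.3% to 33.2%. HIST2H2BE, higher in the brain at 2.31 against 1.74 FPKM, then had −0.04, and H2AFY had −0.46 and passed as lower.

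Lymphoid tissues (bone marrow, spleen, axillary and mesenteric lymph nodes) were set against 30 other peripheral tissues, without the testicles. Of 16 histone genes tested 14 differed, against 88.1% of all genes. Of the 12 above the filter in both groups, 3 were higher (52.0% of all such genes) and 7 lower (34.3%). H2AFV had 102 against 48.1 FPKM (1.08 ± 0.05, SE, higher in 12 of 12 animals, adjusted p = 7.27e-12), H2AFY 131 against 76.7 FPKM (12 of 12), and H3F3A 215 against 170 FPKM (11 of 12). H2AFX, HIST1H2BH, HIST2H4B and HIST1H1D passed the filter through the lymphoid tissues alone. H2AFX had 1.01 against 0.49 FPKM.

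The genes lower in lymphoid tissues were led by H2AFY2, with 0.91 against 4.38 FPKM (−1.79 ± 0.09, SE, lower in 12 of 12 animals, adjusted p = 5.25e-12). HIST1H2BD had 11.5 against 21.0 FPKM and HIST2H2BE 0.95 against 1.92 FPKM, each lower in 12 of 12 animals. HIST1H2AC had 8.38 against 11.6 FPKM (−0.45 ± 0.10, SE, 11 of 12 animals, adjusted p = 0.000658). With scaling to total reads, which moved the median of all genes by 0.46 and the share of higher calls from 59.7% to 76.0%, HIST1H2AC had 0.01, H2AFJ 0.01 and HIST1H1C −0.09 (adjusted p = 0.431), and 8 of the 16 were higher and 4 lower, in place of 7 and 7. HIST1H2BE and HIST1H2BJ did not pass (adjusted p = 0.643 and 0.966), though HIST1H2BJ did as higher with that scaling (0.31, adjusted p = 0.000627). In the same comparison the genes of dividing cells were higher for 21 of 21 (52.5% of all genes tested were), with a median difference of 2.40, and their part in the histone values was not tested.

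In the testicles 11 of 13 histone genes tested differed from the 30 other peripheral tissues, against 82.1% of all genes. Of the 9 above the filter in both groups, 1 was higher (43.3% of all such genes) and 6 lower (35.6%). H2AFY2 was the higher one, at 18.7 against 4.38 FPKM (1.98 ± 0.22, SE, higher in 12 of 12 animals, adjusted p = 1.11e-06). HIST1H1C was lower by 8.53-fold (1.44 against 16.01 FPKM, −3.09 ± 0.24, SE, adjusted p = 3.27e-08), H2AFJ by 5.14-fold (4.05 against 22.9 FPKM) and HIST1H2AC by 4.80-fold (2.02 against 11.6 FPKM). H3F3A (176 against 170 FPKM) and HIST2H2BF (1.35 against 2.05 FPKM) did not pass, though HIST2H2BF did without the animal of ZT20 (−0.60, adjusted p = 0.0216). Scaling to total reads moved the median of all genes by 0.56 and the share of higher calls from 54.5% to 70.0%. H3F3A then passed as higher (0.66, adjusted p = 0.0037), H2AFV and H2AFY, lower before, did not pass (adjusted p = 0.0924 and 0.204), and the counts went from 2 higher and 9 lower to 3 and 8. Since all 12 testicle libraries matched the animal of the preceding time, the pairing within animals is in doubt here.

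HIST1H2BA, which encodes a testis H2B, was read almost only in the testicles. It had 370 reads there and 4 reads in 3 of all other libraries, and 0 reads in the 360 libraries of the other peripheral tissues. Against 3 reads per library as the floor, the testicle mean of 4.84 ± 5.68 FPKM (SD, n = 12) was at least 5.03-fold higher. By label time from ZT0 to ZT22 its libraries had 11.6, 18.04, 7.13, 0, 0.67, 0.39, 3.11, 9.05, 0, 2.83, 0.33 and 4.85 FPKM. The spermatocyte gene SYCP3 had 232, 133, 114, 5.02, 6.52, 6.79, 52.2, 127, 9.45, 108, 18.8 and 39.5 FPKM in the same libraries. The libraries of ZT6, ZT8, ZT10, ZT16 and ZT20 were low for both genes. They were also the lowest for the spermatocyte genes SYCP1, TEX101, PIWIL1 and DDX4, though DDX4 at ZT16 (76.1 FPKM) was near ZT12 (76.8 FPKM). SPO11 differed, with 3.73 FPKM at ZT14 and 4.01 FPKM at ZT22 against 4.17 FPKM at ZT10. The spermatid gene TNP1 had 4310 FPKM at ZT2 and 4221 FPKM at ZT14, with ZT22 next at 95.0 FPKM. The 6 spermatocyte markers summed to 57.9 to 1006 FPKM and the 7 spermatid markers to 6.98 to 9786 FPKM, so these markers differed widely between the testicle libraries. Their part in the other testicle values was not tested. The testis linker gene HIST1H1T had 18 reads over all libraries.

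**Figure D5:**
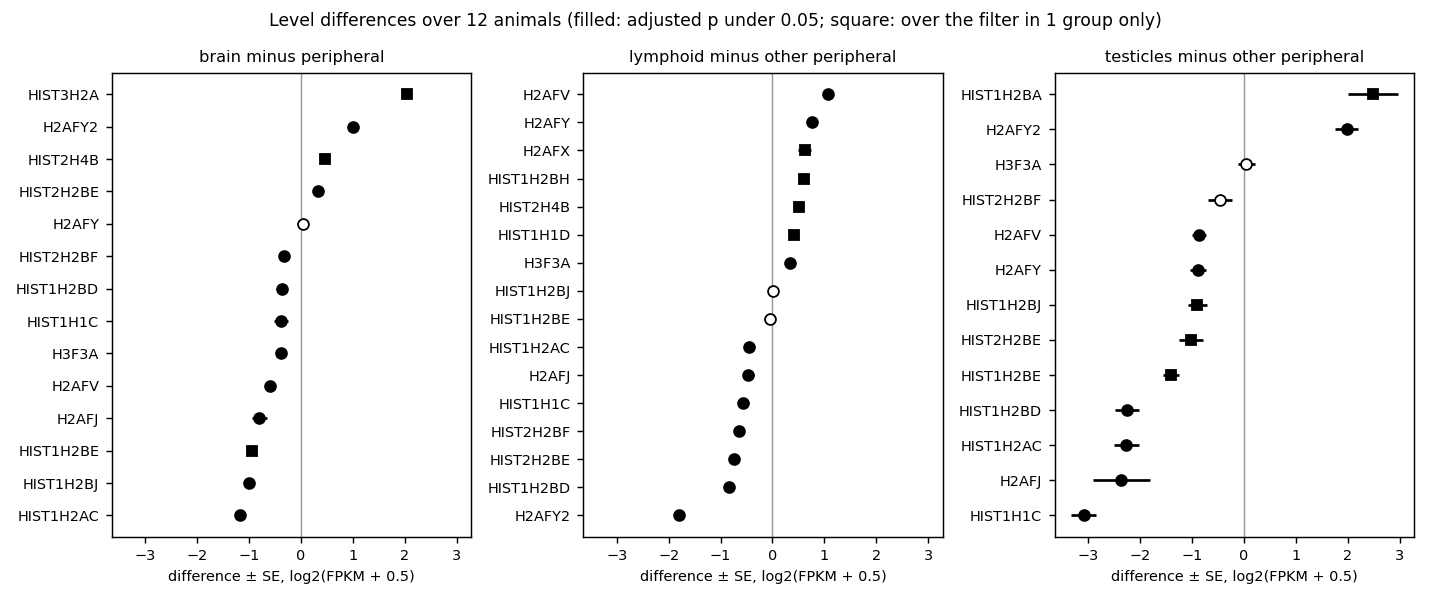
Differences in level with their SE (horizontal, log2(FPKM + 0.5), 12 animals) for the histone genes tested (vertical) in 3 comparisons. Filled points have an adjusted p under 0.05 and squares mark genes above the filter in 1 group alone. HIST1H2AC is on the lower side in all 3 panels, and H2AFY2 is higher in brain and testicles and lowest in lymphoid tissues. With scaling to total reads HIST1H2AC (lymphoid) changes sign.

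Within single tissues, 126 of 818 pairs of a histone gene and a tissue passed the 24 h test, or 15.4%, against 6.56% of all pairs. HIST1H1C passed in 18 of 64 tissues, HIST1H2AC in 16, HIST1H2BD in 14, H3F3A in 13 and H2AFJ in 12. H2AFY2 passed in 3 of 62. The calls came from 23 tissues, and 124 of the 126 had a peak from ZT0 to ZT12, as had 71.9% of all pairs that passed. Thyroid, stomach fundus and duodenum gave 10, 9 and 1 of the calls. All their libraries matched the animal of the preceding time, so these peak times rest on labels in doubt. By class, 18 of 283 pairs passed in the brain (6.36%, against 3.95% of all pairs) and 102 of 441 in the periphery (23.1%, against 9.09%). HIST1H1C passed in 3 of 22 brain and 15 of 35 peripheral tissues, and HIST1H2AC in 2 and 12, and the difference between classes was not tested for these counts. Adrenal medulla, bladder, omental fat and thyroid had 10 genes each, in tissues where 21.9% to 44.2% of all genes passed.

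The thyroid gave HIST1H2AC its largest amplitude among the calls, 1.88 ± 0.21 (SE, n = 12, adjusted p = 0.00176). Its libraries by label time had 0.97, 10.4, 15.5, 21.6, 18.1, 20.9, 16.8, 6.78, 3.77, 1.60, 2.31 and 1.65 FPKM. All thyroid libraries matched the animal of the preceding time, so the peak at ZT8.3 rests on labels in doubt.

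With the library axis as a covariate 5 pairs still passed, against 0.222% of all pairs. All 5 were in the antrum of the stomach, where 12 histone genes were tested and 8.76% of all genes passed with the axis and 5.75% without it. There HIST1H2BD had an amplitude of 1.16 ± 0.15 (SE, n = 12, adjusted p = 0.00881, and 0.00969 with the axis). HIST1H2AC had 1.17 ± 0.17 (SE, 0.0130 and 0.0140), and HIST1H1C 1.00 ± 0.17 (SE, 0.0252 and 0.0241). HIST1H2BJ (1.52 ± 0.29, SE) and HIST2H2BE (1.30 ± 0.25, SE) had 0.0367 and 0.0359 with the axis. The peaks of the 5 genes lay between ZT6.6 and ZT9.2.

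The genes that process histone messenger RNA and those that carry histones peaked in both parts of the day, as did genes in general. Of all genes tested, 63.1% passed the body-wide test, and 58.9% of those peaked from ZT0 to ZT12. The counts of the lists are set beside these shares and are not read as a trait of the lists. Of 14 genes for processing and regulation of histone messenger RNA, 10 passed the body-wide test, 4 with a peak from ZT0 to ZT12 and 6 later, with a median amplitude of 0.17 over the 14. Of these LSM10, a subunit of the particle that trims histone messenger RNA, had 0.59 ± 0.09 (SE) with a peak at ZT6.3. The cleavage factors CPSF2 and CPSF3 had 0.27 ± 0.04 (SE) at ZT18.5 and 0.12 ± 0.03 (SE) at ZT19.8. Of 17 histone chaperones tested 13 passed, 7 in the first and 6 in the second part of the day. The chaperones with the highest levels were NAP1L4 (0.19 ± 0.03, SE, peak ZT17.7), RBBP7 (0.13 ± 0.03, SE, peak ZT17.8) and NASP (0.08 ± 0.03, SE, adjusted p = 0.128). Of the 13 genes of dividing cells tested 7 passed, and the 3 with the highest levels, PCNA, MCM4 and CCNB1, did not (adjusted p = 0.122, 0.236 and 0.908). With the axis as a covariate no gene of these 3 lists passed limma's test body-wide, and 0, 0 and 1 had an unadjusted p under 0.05.

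For level, lymphoid tissues had higher values of most genes of these lists. There 13 of 14 processing genes and 16 of 17 chaperones were higher and none lower, with median differences of 0.68 and 0.78, where 52.5% of all genes tested were higher and 35.5% lower. The median was 0.20 for all genes and −0.03 for the 16 histone genes, 4 of which passed the filter through the lymphoid tissues alone. Over genes above the filter in both groups it was −0.46 for the 12 histone genes and 0.18 for all. In the testicles 11 processing genes and 12 chaperones were higher and 2 of each lower, with medians of 0.88 and 0.90, where 44.8% of all genes were higher and 37.3% lower. Over genes above the filter in both groups the median was −0.88 for the 9 histone genes and 0.13 for all. LSM10 was among the lower ones (−2.18 ± 0.25, SE). In the brain 9 processing genes and 10 chaperones were lower and 3 of each higher, where 47.4% of all genes were lower and 44.2% higher. Of the histone genes outside the symbol rule, the linker genes H1F0 and H1FX passed the body-wide test, as did 63.1% of all genes. Their amplitudes were 0.36 ± 0.06 (SE) and 0.87 ± 0.12 (SE), with peaks at ZT5.4 and ZT5.7. With the axis as a covariate neither passed limma's test (adjusted p = 0.913 and 0.842). CENPA, the centromeric H3, had a median of 0.39 FPKM over tissues and missed the filter body-wide, in the brain and in the periphery. It entered the lymphoid comparison through tissues where it is high. Its difference there, 2.80 ± 0.10 (SE) on the log2 scale, is therefore a description only.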

How the data were processed

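The authors deposited 1 table of FPKM values for 29202 rows and 767 libraries. Per the labels' protocols the libraries were polyA-selected and stranded. STAR, featureCounts and DESeq2 are named per the submitters' processing notes. The sources used here do not give versions, roles or a build. All 26546 rows above 0 are whole reads within 0.01 read times a gene step and a library step, as checked on the values. The library steps do not follow total reads, so scaling to total reads was an alternative.

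Values were used as log2(FPKM + 0.5), which understates changes of low genes. For each animal, deviations from tissue means were averaged over tissues. Curves of 24 h (cosine and sine) and level differences within animals were tested with limma 3.58.1 in R 4.3.3, with a variance trend and Benjamini-Hochberg adjustment over all genes tested at 0.05. Genes needed a mean of 1 FPKM in at least 0.5 of the tissues (of either group, for levels). Fold is the fitted peak over the trough, or in a level difference the ratio of FPKM + 0.5. Levels given per animal or per group of tissues are geometric means of FPKM + 0.5, less 0.5. The library axis is the first principal component of deviations from tissue means (11971 genes, 742 libraries); it leaves out the histone genes and the lists named here. Animals were matched on 200 genes. The fits were tested on simulated data.

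The members and the gene lists were chosen with earlier results of these data known. Named are HIST1H2AC, the 3 highest genes of each family, the 6 smallest p-values and any miss of the body-wide test, the 5 genes with calls in most tissues, the 3 largest level differences each way, the 5 genes and 3 members most like HIST1H2AC, and the 3 highest genes of each list. No gene had 10 FPKM in 1 tissue and under 1 FPKM in all others. Other names were chosen after their values were seen. Marker lists not named in the report (B cells, neutrophil and erythroid precursors, neurons, astrocytes, oligodendrocytes, skeletal muscle, hepatocytes, adipocytes) were not used for a result. Sequences were not used here. Alternatives were other pseudocounts, filters and scalings, the axis as a covariate, no moderation, and leaving out animals or doubtful libraries.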

Additional observations from a re-analysis of the deposited data

Results flagged for a closer look

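For 4 histone genes the 24 h curve differed between brain and peripheral tissues by the test of the difference itself. The amplitude of the brain minus peripheral curve was 0.50 for HIST1H2BD, 0.65 for H2AFJ, 0.57 for HIST1H1C and 0.31 for HIST1H2AC on the log2 scale. Over the alternatives the adjusted p ran from 0.00435 to 0.837 for HIST1H2BD, which passed in 18 of 24, and from 0.0183 to 0.992 for H2AFJ, which passed in 16 of 24. It ran from 0.0118 to 0.992 for HIST1H1C (9 of 24) and from 0.0299 to 0.924 for HIST1H2AC (7 of 23).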

How the results depend on the processing

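Counts of histone genes passing each test were compared over the alternatives. With the filter at 5 FPKM fewer genes were tested, and the counts were 7 body-wide, 5 in the brain, 7 in the periphery, 7 for brain against periphery, 8 for lymphoid tissues and 7 for testicles. With the filter at 0.1 FPKM they were 21, 20 in the periphery, and 22, 24 and 20 for the level differences. With the axis as a covariate they were 1 body-wide, 0 in the brain, 0 in the periphery, 0 for the difference of the curves and 5 pairs in single tissues. The 4 genes whose curve differed between brain and periphery became 2 with a pseudocount of 0.1, 2 with scaling to total reads and 2 without the columns of unexplained suffix. At an unadjusted p under 0.05 there were 7 with no moderation. The 4 became 1 without the library under 1 M reads, and 0 with no moderation, without libraries nearest to another tissue and without those matching another animal, where 0, 28 and 10 of all genes passed, in place of 637. Leaving out each animal in turn gave 12 to 13 body-wide, 8 to 10 in the brain, 11 in the periphery, 0 to 4 for the difference of the curves, 13 for brain against periphery, 13 to 14 for lymphoid tissues and 11 to 12 for testicles. The cause of these changes was not tested, apart from the number of genes a filter admits.

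Signs turned for these level differences. With scaling to total reads HIST2H2BE (−0.0443) and H2AFY (−0.456) turned for brain against periphery, and HIST1H2AC (0.0144), H2AFJ (0.0124) and HIST1H2BE (0.239) for lymphoid tissues. HIST1H2BE also turned with a pseudocount of 0.1 (0.0704), without libraries nearest to another tissue (0.00871) and without the animal of ZT10, with a range of −0.121 to 0.0164 when each animal was left out. HIST1H2BJ turned with a pseudocount of 1 (−0.0216) and without single animals (range −0.0447 to 0.0350). H3F3A in the testicles turned without single animals (range −0.0423 to 0.123). The testicles gave no value without libraries matching another animal, since none remained. Low genes are limited by depth: 7 of the 37 had under 100 reads in all libraries.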
